A study of Bombyx mori with 12 samples.

Results

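The silkworm transposon entries described here are the LINE retrotransposons listed under the superfamily I or a superfamily that begins with I-, namely I-R1, I-Vingi and I-LOA. Entries whose names contain TRAS, SART, R1Bm or R2Bm were left out. Both deposited tables list 1716 transposon entries, 249 of them LINEs, and 36 met this rule: 17 in superfamily I, 16 in I-R1, 2 in I-Vingi and 1 in I-LOA. Of the 36, 4 carry a name of their own (I-1_BM, I-2_BM, Vingi-1_BM and Vingi-1N1_BM) and 32 carry a BmTE number. Entries listed under the superfamily R1 itself are not among them and are set beside them at the end.

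All samples came from BmN4, an ovary-derived cell line of Bombyx mori, given siRNA against Mael (MaelKD), Ago3 (Ago3KD), Siwi (SiwiKD) or, as the control, luciferase (LucKD). The siRNA dose was 500 pmol, transfection was repeated, and the cells were grown at 26 °C for 10 days in all. Small RNA of 22 to 35 nt that came down with Flag-tagged Siwi was sequenced from MaelKD, Ago3KD and LucKD cells, and poly-A RNA from MaelKD, SiwiKD and LucKD cells, with 2 libraries per group. The labels do not say whether both libraries of a group are from different cultures. The p-values below therefore rest on a spread that may be technical. The tables list transposons only, so neither the knockdowns nor the cell type could be checked against genes.

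LINEs are retrotransposons without long terminal repeats that copy themselves by reverse transcription at the cut target site. The I group takes its name from the I factor of Drosophila, known for the sterility it causes in crosses where the mother lacks matching piRNAs, and the R1 group holds many elements that insert at fixed sites such as ribosomal DNA. PIWI-interacting RNAs (piRNAs) guide PIWI proteins to transposon transcripts. In the silkworm, Siwi and Ago3 cut complementary transcripts in turn and hand the products to each other, the ping-pong cycle, and Maelstrom (Mael) is a conserved factor that works with them.

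Library totals, recovered from the steps of the deposited values, were 1.76 to 4.81 M reads for small RNA and 32.5 to 45.2 M reads for poly-A RNA. Listed transposons held 49.4% and 49.2% of the small RNA reads in MaelKD, 36.1% and 37.1% in Ago3KD, and 42.4% and 43.7% in LucKD libraries. They held 2.47% to 3.49% of the RNA reads. Small RNA values are RPM, the reads of an entry scaled to library size, and RNA values are RPKM, which are also divided by length. In small RNA 3 reads, the limit that a count of 0 allows, stand for 0.624 to 1.70 RPM. Such limits cover counting error only. RPM gives a share of the Siwi-bound pool, so a smaller share and fewer molecules per cell cannot be told apart. An entry was tested where its mean over the 6 libraries of its table was at least 1, which 27 of the 36 members met in small RNA and 6 in RNA. The test was limma on log2(value + 1) over all entries that passed, 1004 in small RNA and 490 in RNA, with Benjamini-Hochberg adjustment and a threshold of 0.05. Log2 changes below are on that scale, where the change of a low entry is understated, and carry the standard error of the fit. Where values are also scaled by a trimmed mean over the transposon entries (TMM) and a call changes, that result stands beside it.

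The tables hold no entry lengths, but for 29 members with RNA reads a shortest length could be found at which all 6 values were whole reads. These lengths ran from 221 to 7056 nt, with a median of 1489 nt over 15 members of superfamily I and 3098 nt over 12 of I-R1. BmTE_RM6-225, an I-R1 entry, was longest, and I-2_BM and I-1_BM came to 5480 and 5377 nt. A true length can be a multiple of the length found.

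The members took up less of the Siwi-bound pool in both knockdowns than in the control when each library was scaled to its own total. Their summed share was 0.336% and 0.348% in the MaelKD libraries, 0.243% and 0.249% in the Ago3KD libraries, and 0.480% and 0.482% in the LucKD libraries. The groups did not overlap, with means of 0.342% ± 0.00827, 0.246% ± 0.00468 and 0.481% ± 0.00154 (SD, n = 2 each), but 2 libraries against 2 allow no exact two-sided permutation p below 0.33. With TMM scaling the MaelKD and LucKD means were 0.404% and 0.403%, so the difference between these 2 groups rested on the scaling. Superfamily I held 0.196% ± 0.00210 in MaelKD, 0.155% ± 0.00149 in Ago3KD and 0.302% ± 0.0115 in LucKD libraries. I-R1 held 0.116% ± 0.00390, 0.0611% ± 0.00111 and 0.124% ± 0.0116 in the same groups. Its MaelKD libraries, at 0.113% and 0.119%, overlapped the LucKD libraries, at 0.116% and 0.132%, while both Ago3KD libraries lay below. That overlap leans on the I-R1 entry BmTE_RM5-242, with 605 and 640.4 RPM in MaelKD against 312 and 327 RPM in LucKD libraries. I-R1 was not summed without it, so the overlap does not show that the other I-R1 entries kept their share. BmTE_RM6-225, the I-R1 entry with the most small RNA in LucKD libraries, had 270.5 and 293 RPM in MaelKD against 507 and 631 RPM. BmTE_RM6-1825, a lower I-R1 entry, went the other way, with 65.8 and 56.4 RPM in MaelKD against 32.7 and 35.2 RPM in LucKD libraries. A single entry, I-2_BM, held 0.112%, 0.0362% and 0.115%, and without it the sums of all members were 0.230%, 0.210% and 0.366%. All listed LINEs together, members included, held 12.1% ± 0.245 in MaelKD, 4.08% ± 0.0233 in Ago3KD and 9.35% ± 0.422 in LucKD libraries. LINEs at large thus stood higher in MaelKD than in LucKD libraries, where the members stood lower.

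**Figure D1:**
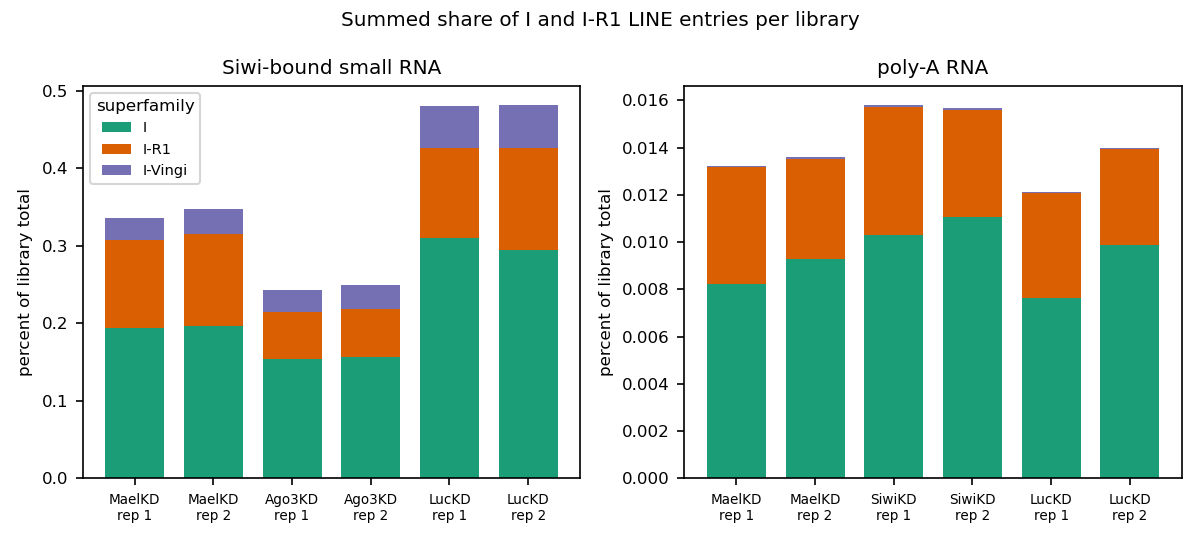
Stacked bars give the summed share of the members in each library, in percent of the library total, for Siwi-bound small RNA (left) and poly-A RNA (right), by superfamily. In small RNA the Ago3KD bars stand at 0.243% and 0.249% and the LucKD bars at 0.480% and 0.482%.

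The comparison of MaelKD with LucKD small RNA asked how the Siwi-bound pool of these elements stood when siRNA targeted Mael. Siwi-bound small RNA of 17 of the 27 tested members fell and that of 2 rose, where 56.2% of all 1004 entries passed, 44.4% lower and 11.8% higher. With TMM scaling 14 fell and 3 rose. The median log2 change was -0.84 over the members and -0.44 over all entries, and -0.41 and -0.01 with TMM scaling.

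Nearly all of superfamily I had less Siwi-bound small RNA after Mael knockdown. Of its 13 tested members 12 fell and none rose (median log2 change -1.34). With TMM scaling 11 fell and 1 rose (median -0.87). The falls were largest in entries of middle level. BmTE_RM1-540 stood at 8.60 and 4.88 RPM in MaelKD libraries, against 30.4 and 42.0 RPM in LucKD libraries (log2 change -2.29 ± 0.26, limma adjusted p = 1.09e-09). BmTE_RM6-5851 had 29.4 and 41.2 RPM in MaelKD, against 157.5 and 129.9 RPM in LucKD libraries (-2.01 ± 0.15, adjusted p = 4.51e-15). BmTE_RM6-3119 had 7.28 and 7.60 RPM in MaelKD and 29.8 and 33.5 RPM in LucKD libraries (-1.95 ± 0.26, adjusted p = 2.98e-08). In all 3, both MaelKD libraries lay far below both controls.

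BmTE_RM6-3570 fell 3.27-fold, to 70.4 and 82.5 RPM in MaelKD, against 228 and 272 RPM in LucKD libraries (log2 change -1.70 ± 0.12, adjusted p = 1.48e-15). BmTE_RM1-642 had 2.98 and 4.88 RPM in MaelKD and 15.0 and 10.2 RPM in LucKD libraries, from 9 and 9 reads against 72 and 18 (-1.47 ± 0.34, adjusted p = 3.66e-04). I-1_BM, one of the longest members, was at 127 and 124 RPM in MaelKD and 248 and 256 RPM in LucKD libraries, a 2.00-fold fall (-0.99 ± 0.11, adjusted p = 1.34e-10). The other falls of superfamily I ran from -1.35 for BmTE_RM6-3195 to -0.54 for BmTE_RM6-2356. Among them, BmTE_RM1-576 was at 301 and 298 RPM in MaelKD and 536 and 509.8 RPM in LucKD libraries (-0.80 ± 0.09, adjusted p = 1.42e-09). BmTE_RM6-5265 was at 93.6 and 90.6 RPM in MaelKD and 236 and 217 RPM in LucKD libraries (-1.29 ± 0.12, adjusted p = 4.51e-12). BmTE_RM6-2136 was low, at 2.98 and 2.71 RPM in MaelKD and 7.91 and 9.64 RPM in LucKD libraries (-1.34 ± 0.36, adjusted p = 0.00161). That of BmTE_RM6-2356 was -0.06 (adjusted p = 0.809) with TMM scaling, and it did not pass without LucKD replicate 1 (-0.41, adjusted p = 0.0649) or MaelKD replicate 1 (-0.43, adjusted p = 0.0553).

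I-2_BM, the member with the most Siwi-bound reads, was the exception in its superfamily. It had 1122 and 1119 RPM in MaelKD libraries, between the 1212 and 1088 RPM of the LucKD libraries (log2 change -0.04 ± 0.08, adjusted p = 0.736). With TMM scaling it was higher in MaelKD libraries (0.46 ± 0.08, adjusted p = 2.17e-05). The direction of this entry relative to control therefore depends on the scaling, while 11 of the other 12 tested members of superfamily I passed as lower under both.

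The I-R1 entries spread in both directions after Mael knockdown. Of 12 tested, 4 fell and 2 rose (median log2 change -0.01), and with TMM scaling 2 fell and 2 rose (median 0.42). The difference between superfamilies I and I-R1 was not tested, since entries are not replicates and may share reads. I-R1 members also had less small RNA, with a median LucKD mean of 4.92 RPM over all 16, against 53.9 RPM over all 17 of superfamily I. A LucKD mean of at least 10 RPM was reached by 6 and 12 of them. The changes of low entries are understated on the log2 scale and harder to call, so counts and medians of the superfamilies are not on equal footing. BmTE_RM5-242 rose to 605 and 640.4 RPM in MaelKD, against 312 and 327 RPM in LucKD libraries (0.96 ± 0.10, adjusted p = 8.84e-11). BmTE_RM6-1825 rose to 65.8 and 56.4 RPM in MaelKD, against 32.7 and 35.2 RPM in LucKD libraries (0.83 ± 0.19, adjusted p = 3.79e-04). Both MaelKD libraries lay above both controls for each of these entries.

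Among the I-R1 falls, BmTE_RM6-1527 was at 27.8 and 21.7 RPM in MaelKD and 69.9 and 75.4 RPM in LucKD libraries (log2 change -1.53 ± 0.17, adjusted p = 5.18e-10). BmTE_RM6-225, the longest member, was at 270.5 and 293 RPM in MaelKD and 507 and 631 RPM in LucKD libraries, 2.02-fold lower (adjusted p = 2.13e-11). BmTE_RM4-315 was at 127 and 140.6 RPM in MaelKD and 200.4 and 205 RPM in LucKD libraries (-0.59 ± 0.11, adjusted p = 2.42e-05), and at -0.10 with TMM scaling (adjusted p = 0.494). BmTE_RM1-361 rested on 12 and 2 reads in MaelKD against 21 and 21 in LucKD libraries (-1.37 ± 0.43, adjusted p = 0.00699). Its call was lost with TMM scaling (adjusted p = 0.0654), without LucKD replicate 2 (-0.74, adjusted p = 0.298) and without MaelKD replicate 2 (-0.74, adjusted p = 0.172).

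The Vingi entries form a small branch of the I group. Vingi-1_BM fell to 288 and 321 RPM in MaelKD, against 537 and 557 RPM in LucKD libraries (log2 change -0.84 ± 0.09, adjusted p = 4.21e-10). Vingi-1N1_BM held 1.32 and 0.543 RPM in MaelKD and 1.87 and 2.27 RPM in LucKD libraries, from 4 and 1 reads against 9 and 4, and did not pass (adjusted p = 0.218).

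**Figure D2:**
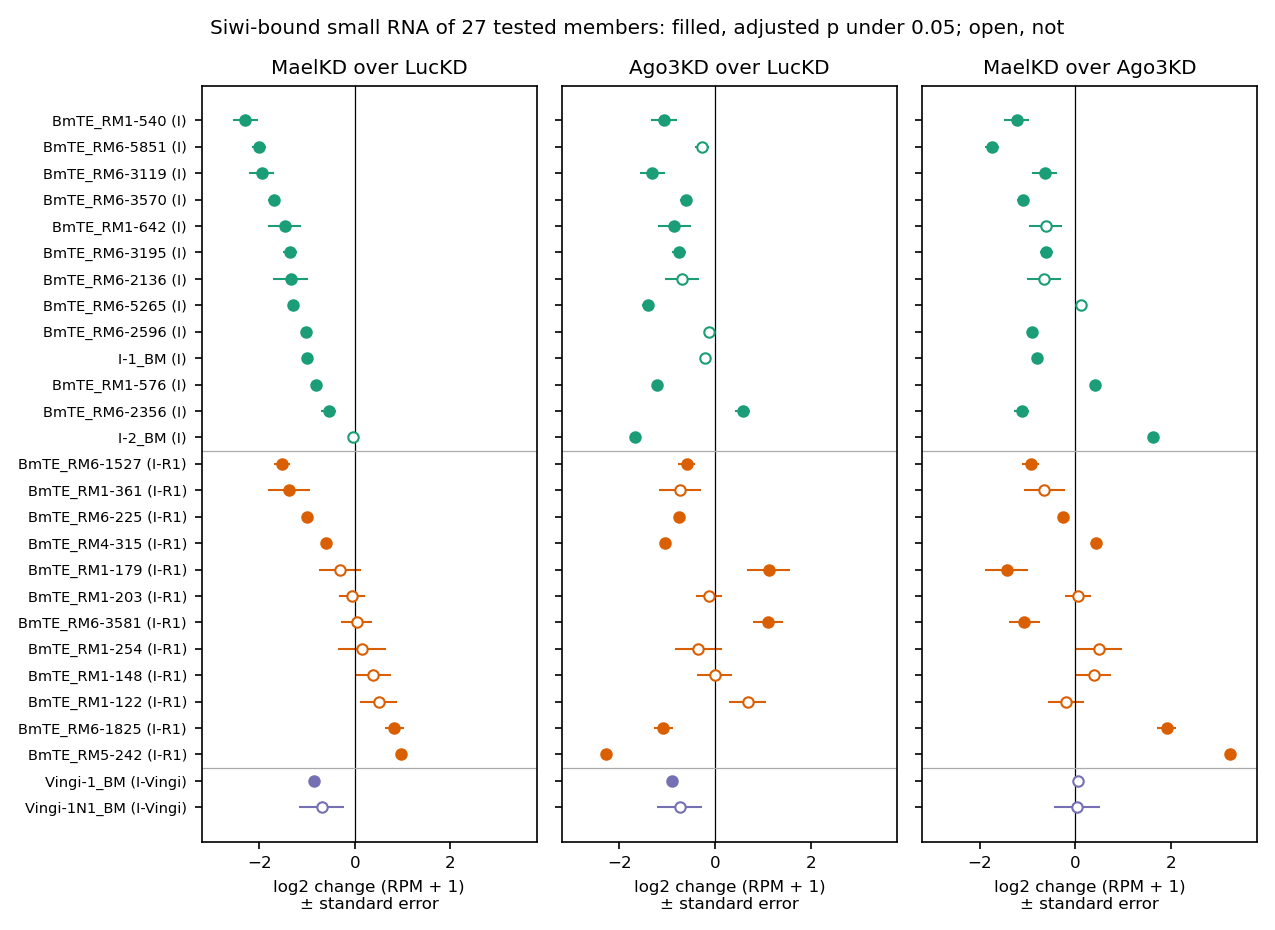
Points give the log2 change in Siwi-bound small RNA (RPM + 1) of the 27 tested members with the standard error of the limma fit as bars, coloured by superfamily and ordered within it by the change after Mael knockdown. Filled points passed the threshold: 12 of 13 superfamily I entries lie filled to the left of 0 for MaelKD over LucKD, while BmTE_RM5-242 lies farthest left for Ago3KD over LucKD and farthest right for MaelKD over Ago3KD.

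The comparison of Ago3KD with LucKD small RNA asked how the same pool stood when siRNA targeted the ping-pong partner of Siwi. Of the 27 tested members 14 fell and 3 rose, where 57.5% of all entries passed, 40.6% lower and 16.8% higher. With TMM scaling 12 fell and 4 rose. The median log2 change was -0.73 over the members and -0.28 over all entries, and -0.47 and -0.03 with TMM scaling. Superfamily I had 8 of 13 members that fell and 1 that rose, and I-R1 had 5 of 12 that fell and 2 that rose.

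The deepest fall after Ago3 knockdown was in an entry that had risen after Mael knockdown. BmTE_RM5-242 was at 65.8 and 63.8 RPM in Ago3KD, against 312 and 327 RPM in LucKD libraries, 4.93-fold lower (log2 change -2.28 ± 0.10, adjusted p = 5.59e-22). I-2_BM was at 356 and 367 RPM in Ago3KD and 1212 and 1088 RPM in LucKD libraries, 3.18-fold lower (-1.66 ± 0.08, adjusted p = 1.78e-20). BmTE_RM6-5265 was at 88.4 and 81.7 RPM in Ago3KD and 236 and 217 RPM in LucKD libraries (-1.40 ± 0.12, adjusted p = 2.95e-13). In each of the 3, both Ago3KD libraries lay far below both controls.

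BmTE_RM6-3119 was at 10.3 and 14.2 RPM in Ago3KD and 29.8 and 33.5 RPM in LucKD libraries (log2 change -1.31 ± 0.26, adjusted p = 3.91e-05). BmTE_RM1-576 was at 234 and 217 RPM in Ago3KD and 536 and 509.8 RPM in LucKD libraries (-1.21 ± 0.09, adjusted p = 2.11e-14). BmTE_RM6-1825 was at 18.0 and 13.3 RPM in Ago3KD and 32.7 and 35.2 RPM in LucKD libraries (-1.08 ± 0.19, adjusted p = 8.62e-06). Vingi-1_BM was at 278 and 307 RPM in Ago3KD and 537 and 557 RPM in LucKD libraries (-0.90 ± 0.09, adjusted p = 6.86e-11). The remaining falls lay between -1.07 and -0.59. Of them, BmTE_RM1-642 (-0.61, adjusted p = 0.133) and BmTE_RM6-1527 (-0.33, adjusted p = 0.105) did not pass with TMM scaling, and BmTE_RM1-642 also not without LucKD replicate 1 (-0.60, adjusted p = 0.287) or Ago3KD replicate 2 (-0.57, adjusted p = 0.250).

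The members that rose after Ago3 knockdown were low or of middle level. BmTE_RM6-2356, of superfamily I, rose to 81.2 and 80.4 RPM in Ago3KD, against 59.1 and 48.8 RPM in LucKD libraries (log2 change 0.58 ± 0.16, adjusted p = 0.00179). BmTE_RM6-3581, of I-R1, rose to 13.0 and 13.8 RPM in Ago3KD, against 7.07 and 4.54 RPM in LucKD libraries (1.11 ± 0.32, adjusted p = 0.00332), a call lost without LucKD replicate 2 (0.83, adjusted p = 0.0684). BmTE_RM1-179, also of I-R1, rested on 12 and 8 reads in Ago3KD against 5 and 3 in LucKD libraries (1.12 ± 0.45, adjusted p = 0.0301), and this call was lost without any 1 of these 4 libraries (0.92 to 1.33, adjusted p = 0.0535 to 0.177).

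Some members of superfamily I that fell after Mael knockdown did not pass after Ago3 knockdown. I-1_BM had 210.2 and 227 RPM in Ago3KD and 248 and 256 RPM in LucKD libraries (log2 change -0.20 ± 0.11, adjusted p = 0.0977). BmTE_RM6-2596 had 170.4 and 192 RPM in Ago3KD and 197 and 196 RPM in LucKD libraries (-0.12 ± 0.11, adjusted p = 0.369). BmTE_RM6-5851 had 119 and 117 RPM in Ago3KD and 157.5 and 129.9 RPM in LucKD libraries (-0.27 ± 0.15, adjusted p = 0.107). A p above the threshold does not show that they were equal to the control. With edgeR on recovered reads BmTE_RM6-5851 passed as lower (-0.30, adjusted p = 0.0412).

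The LucKD libraries are shared by both comparisons, so each member's own values stand side by side and their joint counts are not read as a result. BmTE_RM5-242 and BmTE_RM6-1825 were lower than control after Ago3 and higher after Mael knockdown, also with TMM scaling. BmTE_RM6-2356 was higher after Ago3 and lower after Mael knockdown, but with TMM scaling its Mael call was lost. With TMM scaling I-2_BM was instead opposed, at -1.39 after Ago3 knockdown (adjusted p = 2.32e-16) and 0.46 after Mael knockdown. Another 5 tested members passed in neither comparison. Of these, the I-R1 entry BmTE_RM1-203 had 10.9 and 14.1 RPM in MaelKD, 12.3 and 11.5 RPM in Ago3KD and 10.6 and 15.9 RPM in LucKD libraries, with all groups overlapping. BmTE_RM1-122, also of I-R1, had 5.95 and 4.88 RPM in MaelKD, 5.36 and 7.35 RPM in Ago3KD and 2.08 and 5.67 RPM in LucKD libraries. It passed as higher after Ago3 knockdown with TMM scaling (0.89, adjusted p = 0.0439) and without LucKD replicate 2 (1.24, adjusted p = 0.0256). BmTE_RM1-254 rested on 1 to 16 reads per library, and BmTE_RM1-148 and Vingi-1N1_BM were the others.

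The direct test of MaelKD against Ago3KD small RNA, in which the control plays no part in the difference, called 5 members higher and 12 lower of 27, where 52.4% of all entries passed, 20.7% higher and 31.7% lower. With TMM scaling 7 were higher and 10 lower. BmTE_RM6-5265 passed as higher only with TMM scaling (0.33, limma adjusted p = 0.0226, against 0.11 and adjusted p = 0.426 without). The same held for Vingi-1_BM (0.28, adjusted p = 0.0149, against 0.06 and adjusted p = 0.610 without). The median log2 difference was -0.60 over the members and -0.34 over all entries, and -0.38 and -0.16 with TMM scaling.

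BmTE_RM5-242 had the widest gap, with 605 and 640.4 RPM in MaelKD and 65.8 and 63.8 RPM in Ago3KD libraries, 9.60-fold higher (log2 difference 3.24 ± 0.10, adjusted p = 1.55e-27). BmTE_RM6-1825 had 65.8 and 56.4 RPM in MaelKD and 18.0 and 13.3 RPM in Ago3KD libraries (1.91 ± 0.19, adjusted p = 4.54e-11). I-2_BM had 1122 and 1119 RPM in MaelKD and 356 and 367 RPM in Ago3KD libraries (1.63 ± 0.08, adjusted p = 1.70e-20). The other 2 members higher in MaelKD libraries were BmTE_RM4-315 (0.44 ± 0.11, adjusted p = 0.00127) and BmTE_RM1-576 (0.41 ± 0.09, adjusted p = 2.89e-04), which had fallen against control in both knockdowns.

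On the other side, BmTE_RM6-5851 had 29.4 and 41.2 RPM in MaelKD and 119 and 117 RPM in Ago3KD libraries (log2 difference -1.73 ± 0.15, adjusted p = 1.77e-13). BmTE_RM1-540 (-1.22 ± 0.26), BmTE_RM6-2356 (-1.12 ± 0.16) and BmTE_RM6-3570 (-1.09 ± 0.12) followed with adjusted p of 1.50e-04, 9.88e-08 and 2.22e-10. I-1_BM was lower by a smaller step (-0.79 ± 0.11, adjusted p = 2.66e-08). The named I elements thus parted in this test, with I-2_BM higher and I-1_BM lower in MaelKD than in Ago3KD libraries. BmTE_RM1-179 (-1.43 ± 0.45, adjusted p = 0.00671) and BmTE_RM6-3581 (-1.07 ± 0.32, adjusted p = 0.00518), both of I-R1, stood on 1 to 4 and on 12 to 16 reads in the MaelKD libraries. The call of BmTE_RM1-179 was lost without Ago3KD replicate 1 (adjusted p = 0.0557) or MaelKD replicate 2 (adjusted p = 0.0699). The lower calls of BmTE_RM6-225 (-0.26 ± 0.10, adjusted p = 0.0256) and BmTE_RM6-3119 (-0.64 ± 0.26, adjusted p = 0.0368) were lost with TMM scaling (adjusted p = 0.766 and 0.161). Without Ago3KD replicate 2 or MaelKD replicate 1 neither passed (BmTE_RM6-225 at adjusted p = 0.202 and 0.157, BmTE_RM6-3119 at 0.273 and 0.0997), and BmTE_RM6-3119 did not pass without MaelKD replicate 2 (0.0799).

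**Figure D3:**
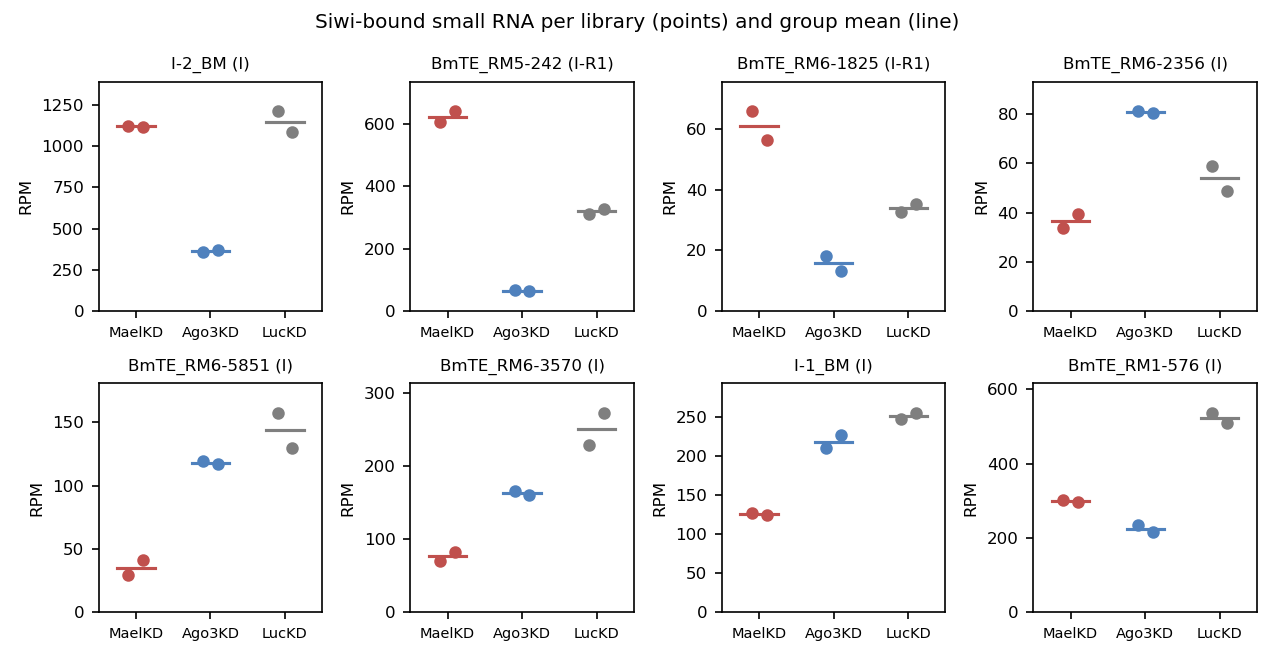
Each panel gives the Siwi-bound small RNA of 1 member in RPM on an axis from 0, with a point per library and a line at the group mean, for MaelKD, Ago3KD and LucKD. I-2_BM at 1122 and 1119 RPM in MaelKD libraries overlaps the LucKD libraries, while BmTE_RM5-242 stands above and BmTE_RM6-5851 below them.

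Of the 9 members that were too low to be tested in small RNA, BmTE_RM1-641 and BmTE_RM5-248, the only I-LOA entry, had no read in any library of either table. The other 7 held few reads. BmTE_RM1-655 had no reads in the MaelKD and Ago3KD libraries and 9 and 2 reads in the LucKD libraries, and BmTE_RM6-2054 had 1 and 0 reads in MaelKD, none in Ago3KD, and 11 and 5 in LucKD libraries. Summed over all 9, the reads were 4 and 1 in MaelKD, 9 and 6 in Ago3KD, and 45 and 10 in LucKD libraries. When every entry with a read was tested, both BmTE_RM1-655 and BmTE_RM6-2054 passed as lower in each knockdown. BmTE_RM1-631, with 0 and 0 reads in MaelKD and 11 and 1 in LucKD libraries, passed as lower after Mael knockdown (limma adjusted p = 0.0163). A count of 0 in MaelKD replicate 2 allows up to 1.63 RPM. In LucKD replicate 2, BmTE_RM1-631 (0.567 RPM) and BmTE_RM1-655 (1.13 RPM) both lay below that limit. The share of all entries called in this fit is not given here.

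In control cells, members with much Siwi-bound small RNA were not in general those with much poly-A RNA. Per kilobase of the length found, small RNA was highest for Vingi-1_BM at 341 ± 8.81 RPM per kb, then BmTE_RM5-242 at 284 ± 9.75, BmTE_RM1-576 at 229 ± 8.23, I-2_BM at 209.8 ± 15.9 and BmTE_RM6-3570 at 188 ± 23.4 RPM per kb (SD, n = 2 LucKD libraries). BmTE_RM1-576 and I-2_BM, and I-2_BM and BmTE_RM6-3570, differed by less than the sum of their SDs. Across the 29 members with a length, the ranks of the LucKD RPKM and of the LucKD RPM per kb had a Spearman rho of 0.10, with 0.32 over 15 members of superfamily I and 0.0070 over 12 of I-R1. These are descriptions over entries that share the libraries and the length by which both values are divided. Of the 29, 23 had a mean below 1 RPKM over the 6 RNA libraries, so most RNA ranks rest on low values.

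The extremes were wide apart. BmTE_RM5-242 had 0.0402 and 0.0808 RPKM in the LucKD RNA libraries, from 2 and 3 reads, beside 312 and 327 RPM of Siwi-bound small RNA. Vingi-1_BM had 0.184 and 0.189 RPKM, from 13 and 10 reads, beside 537 and 557 RPM. BmTE_RM1-148, an I-R1 entry, was the reverse, with 9.51 and 7.23 RPKM, from 490 and 278 reads, beside 3.54 and 4.54 RPM, from 17 and 8 reads. BmTE_RM1-576 and I-2_BM were high in both measures. BmTE_RM4-315, BmTE_RM6-3195 and BmTE_RM6-225, also tested in RNA, had 121, 93.9 and 80.6 RPM per kb in LucKD libraries. BmTE_RM1-148, the remaining member tested in RNA, had 3.46 RPM per kb. Of the 7 members listed at 0 in every RNA library, BmTE_RM1-361 still had 4.37 and 11.9 RPM of small RNA in LucKD libraries.

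**Figure D4:**
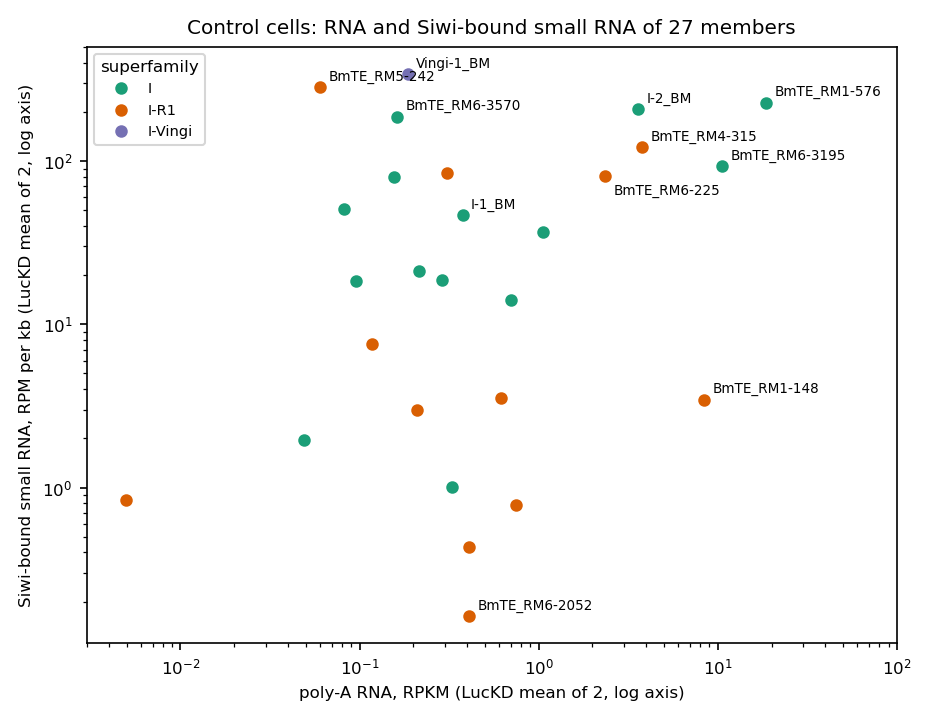
Each point is 1 of the 27 members with RNA and small RNA reads in control cells and a recovered length, with the mean of 2 LucKD libraries of each table on log axes: RPKM of poly-A RNA across and RPM per kb of Siwi-bound small RNA upward. BmTE_RM5-242 (284 RPM per kb) sits at the upper left and BmTE_RM1-148 (8.37 RPKM) at the lower right.

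Poly-A RNA of these elements was low, and 6 of 36 members entered the test. A further 23 were read but had a mean below 1 RPKM, and 7 were at 0 in every library. The members together held 0.0132% and 0.0136% of the RNA reads in MaelKD libraries, 0.0158% and 0.0157% in SiwiKD libraries, and 0.0121% and 0.0140% in LucKD libraries. Both SiwiKD libraries were above the libraries of the other groups, by 1.21-fold over the LucKD mean. Without BmTE_RM1-576 the means were 0.00900% ± 4.33e-04, 0.00926% ± 4.80e-04 and 0.00876% ± 9.18e-04, and with TMM scaling the sums of all members were 0.0143%, 0.0140% and 0.0138%.

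BmTE_RM1-576, of superfamily I, had the most RNA of all members and was alone in passing an RNA test. It stood at 27.1 and 29.5 RPKM in SiwiKD, against 17.4 and 19.9 RPKM in LucKD libraries, 1.52-fold higher (log2 change 0.58 ± 0.19, adjusted p = 0.0215). That is 1 of 6 tested members higher and none lower, where 27.3% of all 490 entries passed, 24.3% higher and 3.06% lower. In MaelKD libraries it had 17.0 and 21.4 RPKM, which overlap the LucKD libraries (0.03 ± 0.19, adjusted p = 0.969) and lie below both SiwiKD libraries (-0.54 ± 0.19, adjusted p = 0.0381). That direct comparison called 1 of 6 members and 20.4% of all entries, 18.8% lower and 1.63% higher. Both calls ended with TMM scaling, at 0.33 (adjusted p = 0.143) and -0.29 (adjusted p = 0.248). The first also ended without LucKD replicate 1 (0.48, adjusted p = 0.142) or SiwiKD replicate 2 (0.52, adjusted p = 0.0784), and the second without any 1 of its 4 libraries (-0.70 to -0.39, adjusted p = 0.0690 to 0.364). The Siwi-bound small RNA of the same entry was lower than in control in both MaelKD and Ago3KD libraries.

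After Mael knockdown no tested member passed in RNA: limma called 0 of 6, with 0 at an unadjusted p under 0.05, and edgeR on recovered reads called 0, where 11.0% of all entries passed, 8.37% higher and 2.65% lower. BmTE_RM6-3195 had 13.0 and 12.9 RPKM in MaelKD, 10.7 and 12.6 RPKM in SiwiKD and 8.66 and 12.4 RPKM in LucKD libraries, with both MaelKD libraries above both controls (log2 change 0.30 ± 0.20, adjusted p = 0.493). BmTE_RM1-148 had 11.0 and 9.16 RPKM in MaelKD, 13.1 and 8.98 RPKM in SiwiKD and 9.51 and 7.23 RPKM in LucKD libraries. I-2_BM had 2.72 and 2.77 RPKM in MaelKD, 2.79 and 3.21 RPKM in SiwiKD and 2.68 and 4.54 RPKM in LucKD libraries, so its controls spread more widely than the knockdowns. The I-R1 entries BmTE_RM4-315 and BmTE_RM6-225 lay between 2.23 and 4.32 RPKM in every library and passed in no comparison. The median log2 change over the 6 members was 0.04 for MaelKD over LucKD. For SiwiKD over LucKD it was 0.18, turning to -0.03 with TMM scaling, and over all entries it was 0.15, turning to -0.05. For MaelKD over SiwiKD it was -0.10, turning to 0.10, and over all entries it was -0.14, turning to 0.07.

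**Figure D5:**
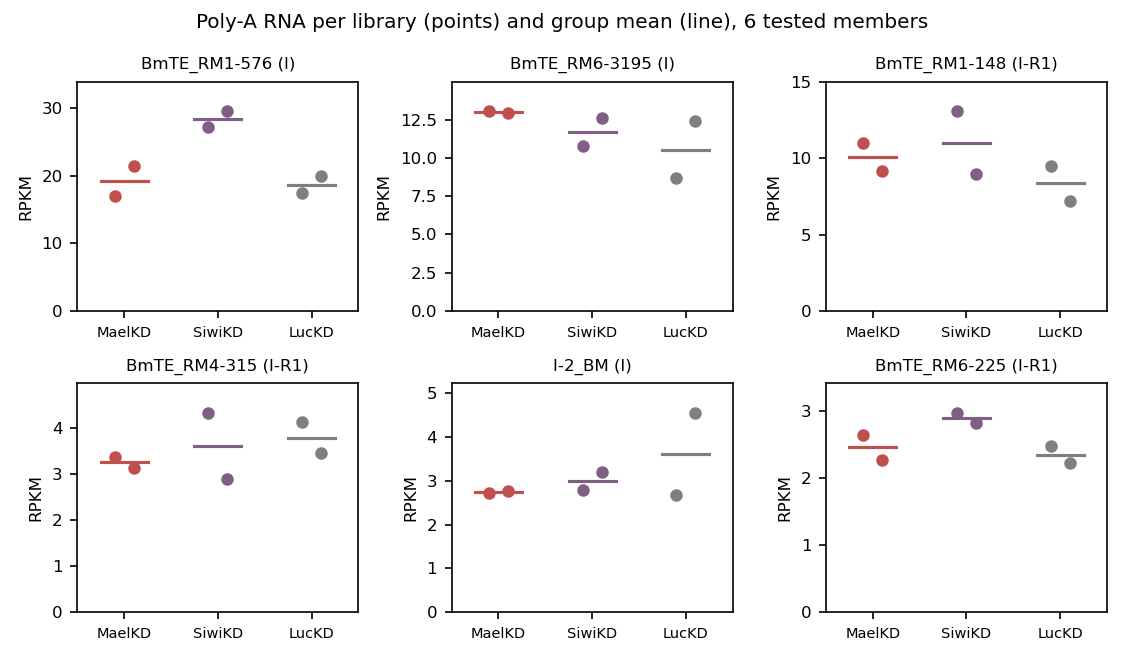
Each panel gives the poly-A RNA of 1 of the 6 tested members in RPKM on an axis from 0, with a point per library and a line at the group mean, for MaelKD, SiwiKD and LucKD. BmTE_RM1-576 stands at 27.1 and 29.5 RPKM in SiwiKD libraries, above the other 4 points of its panel, while the groups of the other panels lie close or overlap.

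Below the filter on low values the RNA counts were small. When every entry with a read was tested, limma called 0 of 29 members in each of the 3 comparisons. Of the 29, 2 had an unadjusted p under 0.05 for SiwiKD over LucKD and 1 in each of the others. The 29 include the 6 members above the filter, among them BmTE_RM1-576. Its adjusted p in this fit was 0.0854 for SiwiKD over LucKD and 0.142 for MaelKD over SiwiKD. The share of all entries called in this fit is not given here. BmTE_RM6-3570 had 25 and 20 reads in MaelKD, 31 and 28 in SiwiKD and 7 and 9 in LucKD libraries, or 0.415 and 0.413, 0.716 and 0.518, and 0.119 and 0.205 RPKM. Its RNA libraries lay above both controls in each knockdown. Vingi-1_BM had 0.221 and 0.567 RPKM in MaelKD, 0.576 and 0.415 RPKM in SiwiKD and 0.184 and 0.189 RPKM in LucKD libraries. BmTE_RM6-1825 had 0.275 and 0.202 RPKM in MaelKD, 0.328 and 0.131 RPKM in SiwiKD and 0.121 and 0.114 RPKM in LucKD libraries. Others lay below both controls. BmTE_RM6-1527 had 0.129 and 0.224 RPKM in MaelKD, 0.215 and 0.201 RPKM in SiwiKD and 0.369 and 0.247 RPKM in LucKD libraries, from 5 to 14 reads per library. BmTE_RM6-2136 had 0.213 and 0.309 RPKM in MaelKD, below both controls, 0.197 and 0.987 RPKM in SiwiKD and 0.725 and 0.680 RPKM in LucKD libraries. BmTE_RM6-5851 had 2 and 1 reads in MaelKD, 0 and 4 in SiwiKD and 3 and 13 in LucKD libraries. BmTE_RM6-2596 lay below both controls in each knockdown, with 1.04 and 1.01 RPKM in MaelKD, 1.02 and 0.543 RPKM in SiwiKD and 1.09 and 1.04 RPKM in LucKD libraries. These members were named after their values were seen. I-1_BM lay between 0.280 and 0.468 RPKM in all 6 libraries, with its groups overlapping. Over all 36 members, both SiwiKD libraries lay above both controls for 6 (16.7%) and below them for 4 (11.1%), where 18.3% of all 1716 entries lay above and 8.92% below. Both MaelKD libraries lay above both controls for 5 members (13.9%) and below for 6 (16.7%), where 11.6% of all entries lay above and 10.7% below.

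The nearest relatives by name are the entries listed under superfamily R1, the rDNA elements R1Bm and R2Bm, and the telomeric TRAS and SART elements. After Mael knockdown, 3 of 6 tested R1 entries other than these rose in Siwi-bound small RNA and none fell, with a median log2 change of 0.48, and with TMM scaling 4 rose, with a median of 0.93. R1-3_BM, the highest of them, had 3002 and 3036 RPM in MaelKD, 863 and 907 RPM in Ago3KD and 2221 and 1931 RPM in LucKD libraries. It thus lay above control after Mael knockdown (0.54, adjusted p = 1.24e-07) and below it after Ago3 knockdown (-1.23, adjusted p = 5.22e-17). R1Bm fell in both (-0.36 after Mael and -1.69 after Ago3 knockdown), but with TMM scaling it did not pass as lower after Mael knockdown. R2Bm did not pass as lower after Mael knockdown either with TMM scaling or without it (0.02 and limma adjusted p = 0.842 without). TMM scaling divided the MaelKD values by 0.850 and 0.846 and the LucKD values by 1.18 and 1.21. Both MaelKD libraries then lay above both controls for R1Bm and for R2Bm. Whether either entry passed as higher with TMM scaling is not given here. Of 5 tested telomeric elements 4 fell after Mael knockdown, or 3 with TMM scaling. Of 19 tested Jockey LINEs 7 rose and 5 fell after Mael knockdown, with a median log2 change of 0.12, against -1.34 for superfamily I. These Jockey and superfamily I values are without TMM scaling, which moved the median of all entries by 0.43. Of all 1004 tested entries, 44.4% passed as lower and 11.8% as higher after Mael knockdown without TMM scaling. No test of these differences between groups of entries was made, and they stand as counts and medians.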

How the data were processed

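The deposited small RNA values were RPM and the deposited RNA values RPKM, as the authors computed them per the file headers. The tools were STAR 2.7.9a, Trim Galore, Bowtie 1.3.0, bedtools, cutadapt 3.1 and SAMtools, per the submitters' processing notes. What each did, the build, strand handling, which reads form the library total and how reads with several matches were counted are not stated in what was used here, so near-identical entries may share reads. Dividing small RNA values by the lowest value above 0 of their library gave whole reads, within 0.001 reads, for 100% of them. RNA totals came from the 2 entries whose names state a length, after which all 978 entries above 0 became whole reads. Titles of the samples gave the groups and the replicate numbers.

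Values were fitted as log2(value + 1) with limma 3.58.1 in R 4.3.3 (lmFit, eBayes with trend), all 6 libraries of a table together, without a block, for entries with a mean of at least 1. Alternatives were pseudocounts of 0.1 and 5, no filter and a mean of at least 10, TMM factors and quasi-likelihood tests on recovered reads (edgeR 4.0.16), a fit of only the groups compared, a replicate block and leaving out each library. The script was tested on simulated data first. Members named with values were, per comparison, the 6 members that rose most and the 6 that fell most among those called with libraries that do not overlap, the 5 highest control members of each table, those with a name of their own, those passing in RNA and those opposed between small RNA knockdowns, with a few chosen after their values were seen. The members and lists were chosen with earlier results of these data known.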

Additional observations from a re-analysis of the deposited data

Results flagged for a closer look

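Members were flagged where their calls against the shared control went in opposite directions and the direct test of MaelKD against Ago3KD also passed. This held for 3 members. Passing the direct test was a condition of the list, so it adds no support to the opposed calls. The share of such entries among all tested entries is not given here. The log2 difference was 3.24 for BmTE_RM5-242 (limma adjusted p = 1.55e-27), with 605 and 640.4 RPM in MaelKD and 65.8 and 63.8 RPM in Ago3KD libraries. It was 1.91 for BmTE_RM6-1825 (adjusted p = 4.54e-11) and -1.12 for BmTE_RM6-2356 (adjusted p = 9.88e-08). The fall of BmTE_RM6-2356 after Mael knockdown, on which its opposition rests, did not pass with TMM scaling, while its direct difference did (-0.91, adjusted p = 1.09e-05). That fall was also lost without LucKD replicate 1 (adjusted p = 0.0649) or MaelKD replicate 1 (adjusted p = 0.0553). Without any 1 of the MaelKD and Ago3KD libraries the direct difference stayed at 3.20 to 3.28 for BmTE_RM5-242, 1.71 to 2.11 for BmTE_RM6-1825 and -1.24 to -1.01 for BmTE_RM6-2356, and passed each time. With TMM scaling I-2_BM was also opposed, at -1.39 after Ago3 and 0.46 after Mael knockdown.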

How the results depend on the processing

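Of 55 called changes of members, 43 passed under all alternatives that gave a value, 12 lost the call under at least 1, and none reversed. TMM scaling ended 9 of these calls, no filter on low values 5, and a pseudocount of 0.1, a pseudocount of 5, a fit of only the groups compared and edgeR on recovered reads 1 each. Leaving out a single library ended 1 to 4 calls each time, and 10 of the 12 lost calls were lost without at least 1 library. Replicate numbers were treated as labels only. Deviations of same-numbered libraries correlated at -0.05 to 0.05 over the tested entries, which cannot exclude that such libraries share a culture or batch. The replicate block left all counts of members as they were. In small RNA these were 17, 19 and 17 for Ago3KD over LucKD, MaelKD over LucKD and MaelKD over Ago3KD. In RNA they were 1, 0 and 1 for SiwiKD over LucKD, MaelKD over LucKD and MaelKD over SiwiKD. The RNA count was 0 with no filter and 0 with TMM scaling for SiwiKD over LucKD and for MaelKD over SiwiKD, and without single libraries it was 0 to 1 in the first and 0 in the second. Summed small RNA shares without I-2_BM were 0.230% in MaelKD, 0.210% in Ago3KD and 0.366% in LucKD libraries, and with TMM scaling 0.404% in MaelKD and 0.403% in LucKD libraries. Summed RNA shares without BmTE_RM1-576 were 0.00900% in MaelKD, 0.00926% in SiwiKD and 0.00876% in LucKD libraries, and with TMM scaling 0.0143% in MaelKD and 0.0140% in SiwiKD libraries. The causes were not tested. TMM scaling moved the median of all entries by 0.43 (MaelKD over LucKD), 0.25 (Ago3KD over LucKD) and 0.18 (MaelKD over Ago3KD) in small RNA, and by -0.20 (SiwiKD over LucKD) and 0.21 (MaelKD over SiwiKD) in RNA. Of the 36 members, 30 in RNA and 9 in small RNA were below the filter on low values, and held 720 to 1023 and 1 to 45 reads per library in sum.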
